A study of Mus musculus with 12 samples.

Results

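Glycolysis is the cytosolic pathway that splits glucose into pyruvate and yields ATP without oxygen, and it is described here through 10 genes. They encode the glucose transporter GLUT1 (Slc2a1), hexokinase 2 (Hk2), glucose-6-phosphate isomerase (Gpi1), aldolase A (Aldoa), triosephosphate isomerase (Tpi1), glyceraldehyde-3-phosphate dehydrogenase (Gapdh), phosphoglycerate kinase 1 (Pgk1), phosphoglycerate mutase 1 (Pgam1), pyruvate kinase M (Pkm) and lactate dehydrogenase A (Ldha). The genes were chosen by symbol as members of the pathway, with no threshold on their values. All 10 are among the 24499 symbols of the deposited count table, and 9 of the 10, all but Pgam1, were among the 10714 genes with enough reads to be tested.

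The study measured polyadenylated RNA of cells enriched on CD11c beads from lymph nodes that drain an injected E0771-cOC tumour (E0771 is a mouse mammary carcinoma line). Wildtype C57BL6 mice (6 libraries) were compared with APOE-KO mice, which lack the lipid carrier apolipoprotein E (6 libraries). All mice received the tumour, and all nodes were taken on day 9 after injection, so no group is free of tumour. The labels give no age or sex, do not say how the knockout allele was made, and do not say whether each library is from its own animal. The p-values thus rest on the spread among these samples, which may be technical. CD11c beads enrich dendritic cells and some macrophages but do not isolate them, and the libraries are of bulk RNA, in which fewer cells of a type and less RNA per cell cannot be told apart.

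Dendritic cells are known to raise glucose uptake and glycolysis when they are activated. The transcription factor HIF-1, which binds DNA at a core of letters ACGTG or GCGTG, drives many glycolysis genes. Hexokinase traps glucose in the cell, aldolase splits the phosphorylated sugar into triose phosphates, enolase makes the last high-energy intermediate, and lactate dehydrogenase regenerates the NAD that the pathway consumes. Several steps have more than 1 gene, and the copies differ in the tissue where they predominate.

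Library totals ran from 2381477 to 4898360 counts and did not differ detectably between genotypes (log2 totals, two-sided exact permutation p = 0.455). The labels held for Apoe, whose level was 481 ± 45.7 CPM (CPM is the count scaled to the TMM-adjusted library total) among wildtype libraries and 5.81 ± 2.95 CPM among APOE-KO libraries (SD, n = 6 each). The bead target Itgax stood at 278 ± 54.0 and 298 ± 36.9 CPM, and none of 14 conventional dendritic cell markers was at 0. Ribosomal RNA (Rn45s) took 2.71% of the counts in wildtype library 3 and 32.2% in wildtype library 1, the lowest and highest shares. APOE-KO library 5 had the fewest genes with a read (11971, against 12570 to 14495 in the others). The next lowest Rn45s share was 5.17% in wildtype library 4, and the next highest 21.6% in APOE-KO library 3. These 3 libraries are thus the extremes of these measures, and some fits below leave them out together.

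Promoter sequences are shown for the genes whose levels rose, Aldoa and the enolases Eno2 and Eno3, and for Ldha. Ldha did not pass, and the window of it that is shown holds the most matches to ACGTG among the members' windows. The other Ldha window, at chr7:46846832-46847131, holds none. The sequences are RefSeq windows of 300 bases on GRCm38.p6, from 250 bases before to 50 after a transcription start, written 5′ to 3′ along the gene. Capitals mark ACGTG or its reverse complement CACGT, and the palindrome CACGTG counts as a match on each strand, so the Ldha window holds 5 matches. The Aldoa window is at chr7:126799205-126799504, minus strand, that of Eno2 at chr6:124769624-124769923, minus strand, that of Eno3 at chr11:70656926-70657225, plus strand, and that of Ldha at chr7:46845554-46845853, plus strand.
Aldoa: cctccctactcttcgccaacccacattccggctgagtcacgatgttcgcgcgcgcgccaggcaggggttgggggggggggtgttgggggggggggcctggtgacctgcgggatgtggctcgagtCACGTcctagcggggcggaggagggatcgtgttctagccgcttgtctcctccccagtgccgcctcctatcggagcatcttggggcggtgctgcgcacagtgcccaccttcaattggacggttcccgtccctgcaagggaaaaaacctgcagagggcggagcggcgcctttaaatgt
Eno2: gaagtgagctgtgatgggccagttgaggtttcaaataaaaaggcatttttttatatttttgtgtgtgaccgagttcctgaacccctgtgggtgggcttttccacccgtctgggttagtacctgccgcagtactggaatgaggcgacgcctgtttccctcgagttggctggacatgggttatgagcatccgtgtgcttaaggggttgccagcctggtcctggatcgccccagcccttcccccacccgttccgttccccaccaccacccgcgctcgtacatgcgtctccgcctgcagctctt
Eno3: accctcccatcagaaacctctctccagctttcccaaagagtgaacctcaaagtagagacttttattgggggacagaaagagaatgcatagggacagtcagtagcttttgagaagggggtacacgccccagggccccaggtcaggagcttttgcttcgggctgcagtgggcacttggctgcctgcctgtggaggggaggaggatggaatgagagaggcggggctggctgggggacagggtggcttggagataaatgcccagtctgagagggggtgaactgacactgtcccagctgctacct
Ldha: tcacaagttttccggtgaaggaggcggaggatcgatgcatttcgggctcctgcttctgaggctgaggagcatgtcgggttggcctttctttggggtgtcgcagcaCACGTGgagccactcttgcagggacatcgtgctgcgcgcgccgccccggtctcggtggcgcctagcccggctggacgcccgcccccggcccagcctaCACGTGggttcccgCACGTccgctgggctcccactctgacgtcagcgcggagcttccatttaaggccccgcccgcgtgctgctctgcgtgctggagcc

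All 10 genes had at least 1 RefSeq window, 14 in all. ACGTG, on either strand, was found in 9 of the 14 windows, or 64.3%, and in 19.6% of all 32851 promoter windows of that length. At least 1 window of 8 of the 10 genes held it, and no window of Gpi1 or Tpi1 did. Of the 3 Aldoa windows, the pair that starts further downstream held 1 match each and overlap one another, so these are the same letters. The single windows of Eno2 and Eno3, both of which rose, held no ACGTG, and the other form of the core, GCGTG, was not searched for. The longer palindrome CACGTG, which contains ACGTG on both strands, was in 1 of the 14 windows (Ldha, at 2 places) and in 7.15% of all windows. A match describes letters in the window and is not a measured binding site. The members' windows and all windows were not matched for base composition, and Aldoa, Pkm and Ldha have more than 1 window each.

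The series has a single comparison, APOE-KO against wildtype, and here it asks whether the transporter and enzyme transcripts of glycolysis differ between the genotypes. Aldoa was higher in APOE-KO by 1.47-fold, and none of the other 8 tested members passed the test. Across all 10714 genes, 160 passed an adjusted p of 0.05, a share of 1.49% (1.08% higher and 0.411% lower). Among the members 1 of 9 passed, 6 had a positive and 3 a negative log2 fold change, and the median was 0.11, against -0.02 and 47.2% positive over all tested genes. With 1 gene passing of 9, the members as a group are not shown to stand apart from other genes. At an unadjusted p under 0.05 the count was also 1 of 9, where 12.1% of all genes reached that level (6.27% higher and 5.81% lower).

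Aldoa is a protein-coding gene at chromosome 7, bases 126795234 to 126800751, minus strand (GRCm38). Its lowest, median and highest levels were 74.2, 84.6 and 91.0 CPM in the wildtype libraries and 109, 125 and 136 CPM in the APOE-KO libraries. Every APOE-KO library lay above every wildtype library, which was so, in either direction, for 1.77% of all genes (1.23% upward). The means were 83.5 ± 6.30 CPM (wildtype) and 123 ± 10.5 CPM (APOE-KO) (SD, n = 6 each), with log2 fold change 0.55 ± 0.13 SE, adjusted p = 0.0209 in edgeR's quasi-likelihood test. The 95% interval of the fold ran from 1.23 to 1.76. Aldoa was also the least variable member among wildtype libraries, with a coefficient of variation of 7.54% there and 8.57% in APOE-KO. The call did not hold without APOE-KO library 3 (adjusted p = 0.0643), without APOE-KO library 6 (adjusted p = 0.0553), or without wildtype libraries 1 and 3 and APOE-KO library 5 together (log2 fold change 0.46, adjusted p = 0.0728).

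**Figure D1:**
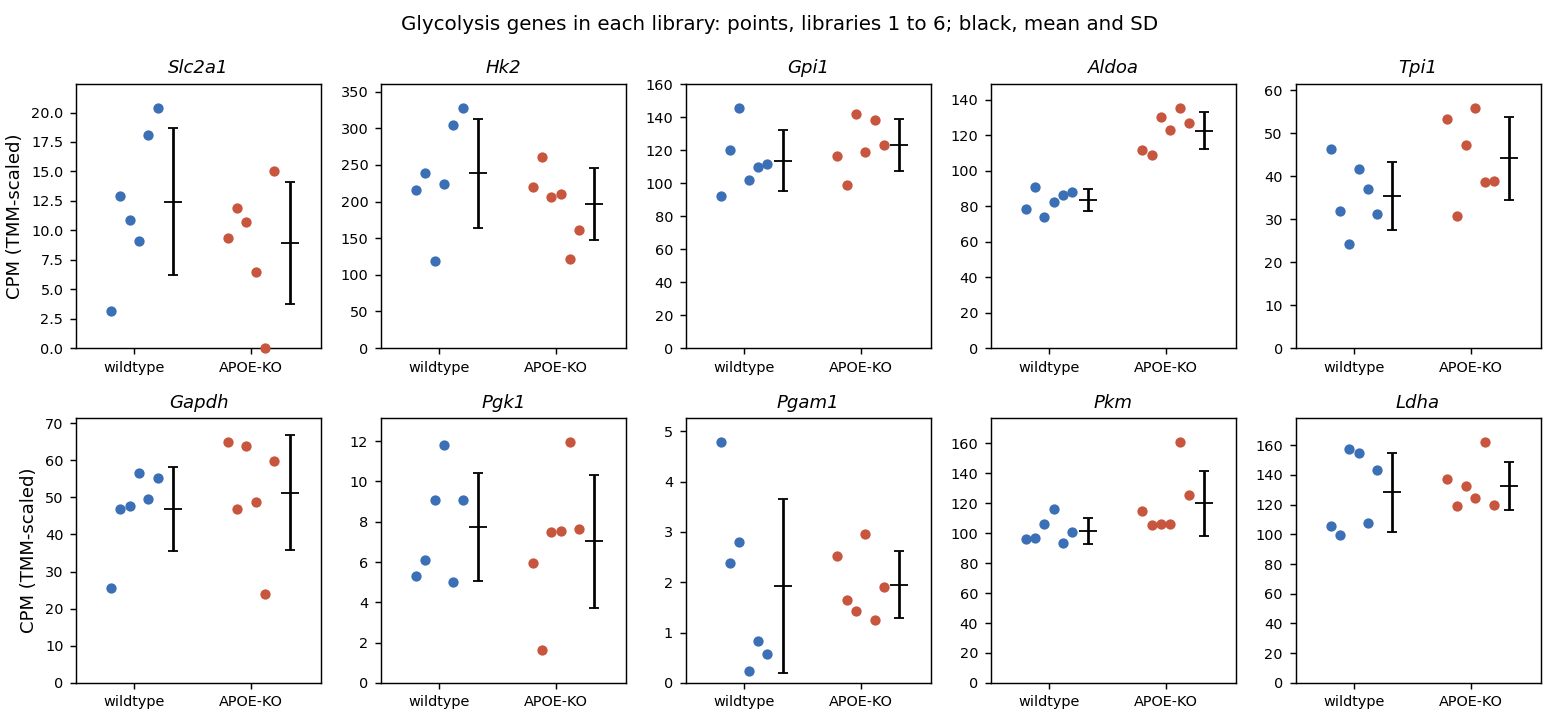
Level of each of the 10 glycolysis genes in CPM (vertical axes, each from 0), by genotype. Points are libraries 1 to 6 from left to right, and black marks are the mean and SD. For Aldoa the 6 APOE-KO libraries sit between 109 and 136 CPM, above all wildtype libraries at 74.2 to 91.0 CPM, and for each other gene the groups overlap.

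The first steps, uptake and phosphorylation of glucose, are carried by Slc2a1 and Hk2. Slc2a1, the basal glucose transporter, had lowest, median and highest levels of 3.19, 11.9 and 20.4 CPM in the wildtype libraries and 0, 10.0 and 15 CPM in the APOE-KO libraries. APOE-KO library 5 held 0 Slc2a1 reads, where 3 reads would be 0.746 CPM, while the other APOE-KO libraries held 24 to 71 reads. The groups overlapped (log2 fold change -0.49 ± 0.51 SE, adjusted p = 0.780, 95% interval of the fold 0.340 to 1.48), and without APOE-KO library 5 the log2 fold change was -0.23. Hk2, the inducible hexokinase, had the highest mean CPM of the members. Its lowest, median and highest levels were 119, 232 and 328 CPM in the wildtype libraries and 122, 208 and 261 CPM in the APOE-KO libraries. Wildtype library 3 and APOE-KO library 5 had the lowest Hk2 level of their groups, 119 and 122 CPM. Hk2 did not pass (log2 fold change -0.28 ± 0.20 SE, adjusted p = 0.62, interval of the fold 0.624 to 1.09). Its log2 fold change was -0.41 without wildtype library 3, -0.17 without APOE-KO library 5 and -0.16 without wildtype library 6, its highest.

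The isomerases on either side of aldolase are Gpi1, which turns glucose-6-phosphate into fructose-6-phosphate, and Tpi1, which interconverts the triose phosphates. Gpi1 stood at 114 ± 18.4 CPM (wildtype) and 123 ± 15.7 CPM (APOE-KO) (SD, n = 6 each; log2 fold change 0.11 ± 0.14 SE, adjusted p = 0.826), and its fold interval of 0.885 to 1.32 was among the narrowest of the members. Tpi1 had levels of 24.3, 34.5 and 46.2 CPM in the wildtype libraries and 30.7, 43.1 and 55.9 CPM in the APOE-KO libraries. Its groups overlapped, with log2 fold change 0.33 ± 0.19 SE, adjusted p = 0.529 and a fold interval of 0.950 to 1.66. The last 300 bases of its transcripts overlap exons of Spsb2 on the other strand, with the strand setting of the counting not given in the sources used here.

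In the payoff steps no member passed. Gapdh, the dehydrogenase often used as a reference gene, had 46.9 ± 11.2 CPM (wildtype) and 51.3 ± 15.4 CPM (APOE-KO) (SD, n = 6 each; log2 fold change 0.12 ± 0.22 SE, adjusted p = 0.894, fold interval 0.797 to 1.48). Wildtype library 1 and APOE-KO library 5 were the low ones, at 25.5 and 23.9 CPM. The log2 fold change of Gapdh was 0.0014 without the first, 0.27 without the second, and 0.041, 0.050 and 0.071 without APOE-KO library 1, 3 or 6. Pgk1, which makes the first ATP of the payoff phase, had 182 wildtype and 164 APOE-KO reads in all, at 7.74 ± 2.7 CPM (wildtype) and 7.03 ± 3.32 CPM (APOE-KO) (log2 fold change -0.15 ± 0.41 SE, adjusted p = 0.941, fold interval 0.499 to 1.64). Pgam1 held 38 and 45 reads in all and did not pass the filter on low counts. The interval of the fold of Pgk1 leaves differences up to its bounds possible. With no such filter, the log2 fold change of Pgam1 was 0.08 ± 0.89 SE (adjusted p = 0.989), an error too wide to place it.

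Pkm, which makes pyruvate, had lowest, median and highest levels of 93.2, 98.8 and 116 CPM in the wildtype libraries and 105, 111 and 161 CPM in the APOE-KO libraries. Its highest value, 161 CPM, was that of APOE-KO library 5, the groups overlapped, and Pkm did not pass (log2 fold change 0.24 ± 0.14 SE, adjusted p = 0.504, fold interval 0.972 to 1.44). Without APOE-KO library 5 the log2 fold change was 0.14. The M1 and M2 forms of Pkm cannot be told apart in a count per gene. Ldha, which turns pyruvate into lactate, showed the smallest difference of the tested members, at 128 ± 26.6 CPM (wildtype) and 133 ± 16.1 CPM (APOE-KO) (SD, n = 6 each; log2 fold change 0.04 ± 0.15 SE, adjusted p = 0.951). The interval of its fold, 0.838 to 1.27, leaves differences up to those bounds possible.

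**Figure D2:**
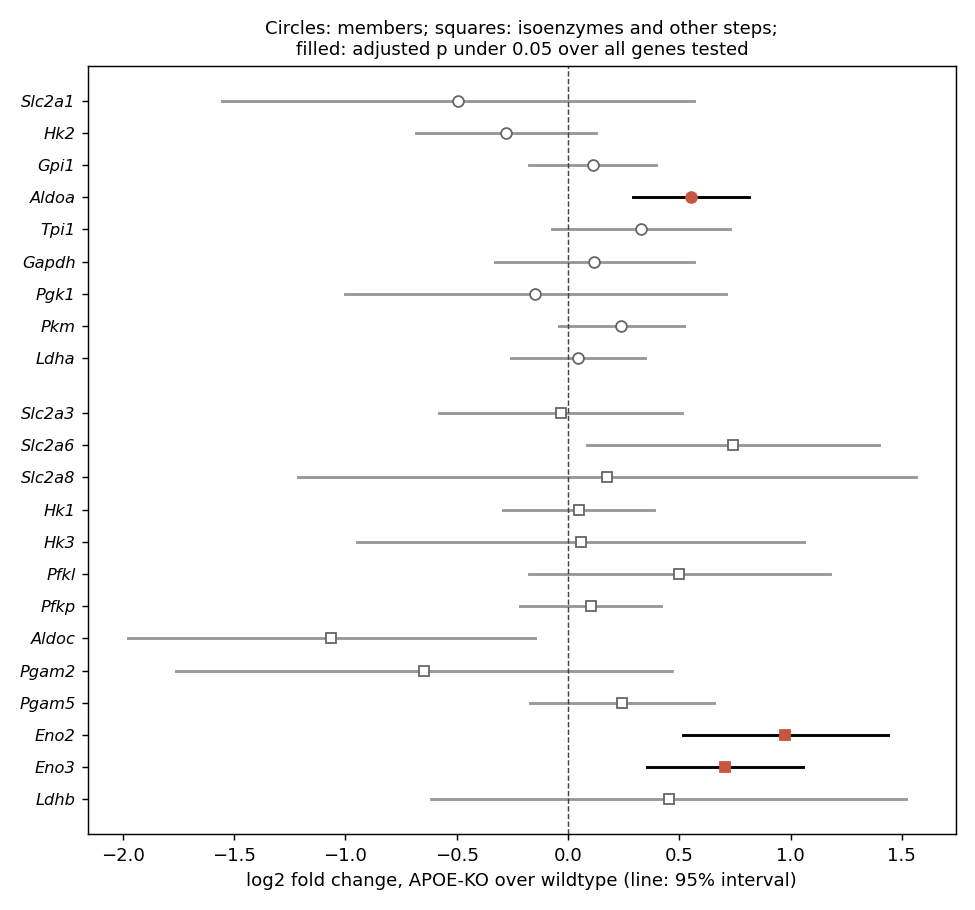
Log2 fold change of APOE-KO over wildtype (horizontal axis) with its 95% interval for the 9 tested members (circles) and 13 tested isoenzymes and other steps (squares). Filled symbols have an adjusted p under 0.05 over all genes tested: Aldoa at 0.55, Eno2 at 0.98 and Eno3 at 0.71.

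Since Aldoa was the one member that passed, its level was also set against the other members within each library, a comparison that does not depend on library scaling. It was chosen after the values were seen and is no independent support. Aldoa made up 9.92% to 12.2% of the reads of the 10 genes in wildtype and 13.3% to 17.1% in APOE-KO, with no overlap (means 10.9% ± 0.851 and 15.2% ± 1.41, SD, n = 6 each; exact permutation test, two-sided p = 0.00216, the smallest that assignments of 6 of 12 libraries can give). Ratios of Aldoa were taken to 6 other members, leaving out Slc2a1, Pgk1 and Pgam1, the lowest in CPM. They were tested on the log2 scale by the same exact permutation test and adjusted over these 6 ratios alone. The ratio to Gpi1 rose from 0.750 ± 0.123 to 1.00 ± 0.0633 (exact p = 0.00216, adjusted 0.0130). The ratios to Ldha, Pkm and Hk2 also rose (exact p = 0.00866, 0.0173 and 0.0152, each 0.0260 adjusted). The ratios to Tpi1 and Gapdh did not pass (exact p = 0.247 and 0.154). With Gapdh as the reference, Aldoa ranged from 1.46 to 3.08 in wildtype and 1.72 to 5.68 in APOE-KO, and the highest ratio of each group was that of the library low in Gapdh.

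**Figure D3:**
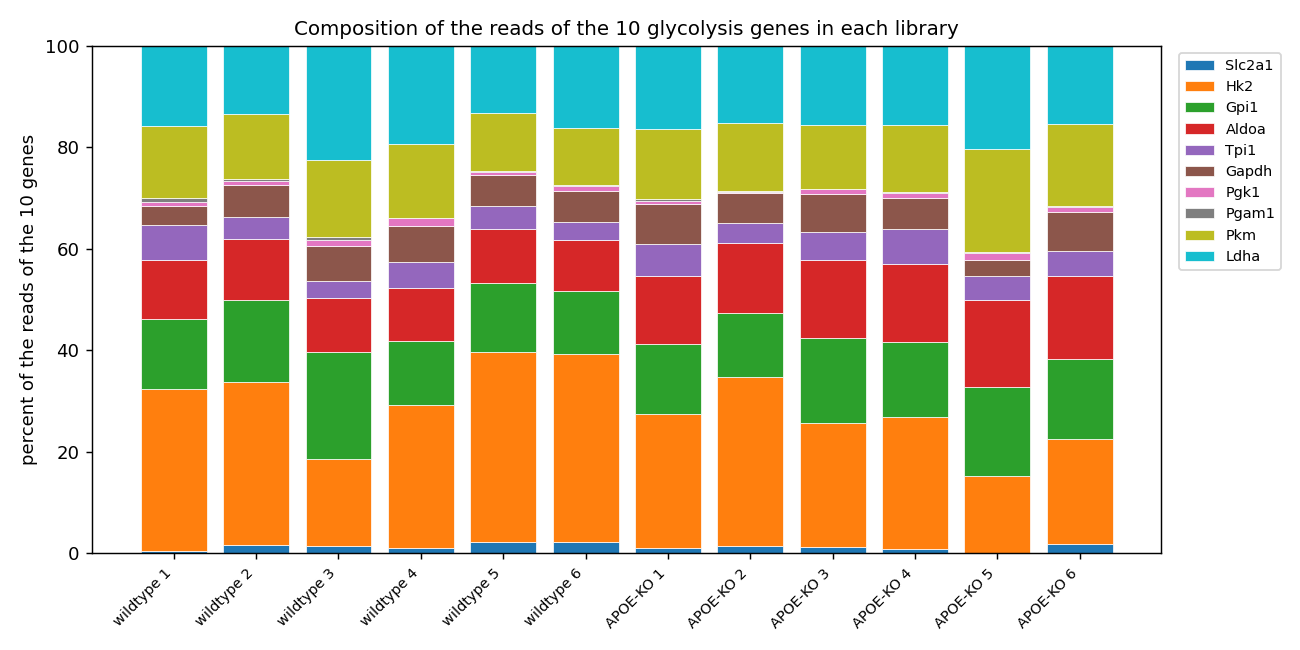
Share of the reads of the 10 glycolysis genes held by each gene (vertical axis, percent) in each of the 12 libraries (bars). The Aldoa segment is 9.92% to 12.2% in wildtype and 13.3% to 17.1% in APOE-KO, and Hk2 ranges from 15.3% in APOE-KO library 5 to 37.5% in wildtype library 5.

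Over all 10 genes, the summed level was 769.8 ± 79.9 CPM for wildtype and 808 ± 28.0 CPM for APOE-KO (SD, n = 6 each), with ranges of 673 to 889 and 779.8 to 848 CPM that overlap. The kit reads near the 3' end, and a long transcript does not give more reads for its length, so levels of different genes are set side by side in CPM. In wildtype the order was Hk2, Ldha, Gpi1, Pkm, Aldoa, Gapdh, Tpi1, Slc2a1, Pgk1 and Pgam1. The ranges of Ldha and Gpi1, of Gpi1 and Pkm, of Gapdh and Tpi1, and of Slc2a1 and Pgk1 overlapped, and so did those of Hk2 and Ldha through wildtype library 3. Pkm was above Aldoa in 6 of 6 wildtype libraries without overlap. In APOE-KO, Aldoa stood next to Gpi1 and Pkm, at 123, 123 and 119.9 CPM, with overlapping ranges.

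Gapdh, Pgk1 and Pgam1, genes that most cells transcribe strongly, were low here next to Hk2. Of the distinct 50-base stretches in the last 300 bases of its annotated transcripts (GENCODE vM21, GRCm38), Gapdh shares 82.9% exactly with other genes, 96 of them pseudogenes. Tpi1 shares 18.1%, Ldha 13.9% and Aldoa 2.37%, in each case with pseudogenes, and the other 6 members share none. Pgk1 and Pgam1 stood low without an exact match of that length. The sources used here do not give the annotation or how reads with several matches were counted. The levels of Gapdh, Tpi1 and Ldha are thus uncertain, and the part of shared sequence in these levels was not tested. Why Pgk1 and Pgam1 stood low was not tested either. The order of the genes by CPM is therefore that of assigned reads, and may not be their order in the cells. Of the pseudogenes that share stretches with Gapdh, 6 are in the count table, with 92 reads in all against 2242 for Gapdh.

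Of 25 isoenzymes and other glycolytic genes outside the 10, 13 were tested, 2 rose, none fell, and the median log2 fold change was 0.18. Over all tested genes 1.08% rose and 0.411% fell. At an unadjusted p under 0.05 the list had 4 of 13, where 12.1% of all tested genes reached that level, and it was not tested as a set. Both that rose are enolases. Eno2, the neuronal or gamma enolase, is at chromosome 6, bases 124760053 to 124769673, minus strand. Its lowest, median and highest levels were 15, 24.7 and 26.4 CPM in the wildtype libraries and 29.0, 40.2 and 63.3 CPM in the APOE-KO libraries, and the groups did not overlap. Its means were 22.1 ± 5.22 CPM (wildtype) and 43.2 ± 13.1 CPM (APOE-KO) (SD, n = 6 each), 1.97-fold higher in APOE-KO with log2 fold change 0.98 ± 0.22 SE, adjusted p = 0.0216. Eno3, the muscle or beta enolase, at chromosome 11, bases 70657202 to 70662513, plus strand, had levels of 75.1, 109 and 158 CPM in the wildtype libraries and 137, 182 and 228 CPM in the APOE-KO libraries. It was 1.63-fold higher (log2 fold change 0.71 ± 0.17 SE, adjusted p = 0.0299), and the groups overlapped, since wildtype library 2 at 158 CPM was above APOE-KO libraries 2 and 5 at 141 and 137 CPM.

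Eno1, the ubiquitous or alpha enolase, and its retrogene Eno1b held 1 read each over the 12 libraries. Eno1 shares 87.9% of the 50-base stretches of its 3' end with 1 other gene, and Eno1b 89.0%. The enolase step is thus seen here through Eno2 and Eno3 alone, and what these cells hold of Eno1 was not measured. Neither Eno2 nor Eno3 shares any such stretch. The enolase calls depended on which libraries entered the fit. That of Eno2 was lost without wildtype library 4, APOE-KO library 1 or APOE-KO library 3, at an adjusted p of up to 0.0887. Eno3 passed in 5 of the 12 fits that left out 1 library (adjusted p up to 0.112 without APOE-KO library 3): these were the fits that dropped wildtype 2, wildtype 3, APOE-KO 1, APOE-KO 2 or APOE-KO 5.

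The other aldolase tested, Aldoc, had the opposite sign to Aldoa. It stood at 11.7 ± 3.30 CPM (wildtype) and 5.58 ± 4.08 CPM (APOE-KO) (SD, n = 6 each) and did not pass (log2 fold change -1.06 ± 0.44 SE, adjusted p = 0.321), with 273 and 128 reads. The lysosomal sugar transporter family member Slc2a6 had 9.48 ± 3.83 CPM (wildtype) and 15.5 ± 5.15 CPM (APOE-KO) and did not pass (log2 fold change 0.74 ± 0.32 SE, adjusted p = 0.334). Slc2a3, the high-affinity transporter GLUT3, was at similar means of 29.8 and 29.0 CPM (95% interval of the fold 0.669 to 1.43), above Slc2a1 in level. Slc2a8, a transporter of internal membranes, was at 2.88 and 3.29 CPM (adjusted p = 0.958).

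Hk2 supplied most hexokinase reads, 79.8% ± 6.42 for wildtype and 76.6% ± 4.51 for APOE-KO (SD, n = 6 each; exact permutation test, two-sided p = 0.344). Hk1, the constitutive form, had 51.6 and 53.4 CPM (fold interval 0.816 to 1.31), and Hk3, a form of myeloid cells, 4.42 and 4.70 CPM (fold interval 0.519 to 2.09). Among phosphofructokinases, which commit sugar to glycolysis, Pfkp led with 75.8 and 81.6 CPM (adjusted p = 0.866; its 3' end overlaps exons of Pitrm1 on the other strand). Pfkl had 11.4 and 16.2 CPM (adjusted p = 0.587). Pgam2 and Ldhb, at under 6 CPM in either group, had adjusted p of 0.70 and 0.807. Pgam5, a mitochondrial phosphatase with a mutase's name, had 27.9 and 33.2 CPM (adjusted p = 0.696). Hkdc1, Gapdhs, Pgk2 and Pklr had no read in any library.

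Beyond the pathway itself no listed gene passed: 0 of 15 tested genes of lactate and pyruvate fate, 0 of 18 of glycolytic control, 0 of 9 of the pentose phosphate pathway, 0 of 14 of gluconeogenesis, glycogen and side branches, and 0 of 18 hypoxia-inducible genes outside glycolysis. Of all tested genes 1.49% passed, and 12.1% had an unadjusted p under 0.05. At that unadjusted level the counts of these lists were 0, 5, 0, 2 and 0. Their median log2 fold changes were 0.11, -0.09, 0.03, 0.06 and 0.01, and no list was tested as a set. Of the control list, 2 genes passed under some alternatives. Vhl passed in 7 of 25, with an adjusted p of 0.0150 at the lowest. Among them were upper quartile scaling, no low count filter, DESeq2, limma-voom and the proliferation covariate. The rest left out wildtype library 1 alone, or wildtype libraries 1 and 3 and APOE-KO library 5 together. Txnip passed in 3: no low count filter, DESeq2, and without wildtype library 5. In the other 4 lists, of the genes named below, Pygl passed in 1 alternative, without wildtype library 3 (adjusted p = 0.0391).

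The control genes nearest to the threshold were these same genes. Vhl, whose product marks HIF-1 alpha for destruction, had levels of 77.7, 89.7 and 117 CPM in the wildtype libraries and 113, 127 and 173 CPM in the APOE-KO libraries (log2 fold change 0.54 ± 0.14 SE, adjusted p = 0.0606). Its groups overlapped through wildtype library 1, at 117 CPM. Txnip, which restrains glucose uptake, had levels of 253, 308 and 483 CPM in the wildtype libraries and 220.1, 240.5 and 271 CPM in the APOE-KO libraries (log2 fold change -0.55 ± 0.15 SE, adjusted p = 0.0754), and wildtype libraries 3 and 4 were the high ones. The other 3 control genes with an unadjusted p under 0.05, named after their values were seen, had adjusted p of 0.308 to 0.396. Pfkfb4 was at 10.9 ± 6.80 CPM (wildtype) and 5.25 ± 2.72 CPM (APOE-KO), Pfkfb3 at 510.0 ± 159 CPM (wildtype) and 679 ± 143 CPM (APOE-KO), and Arrdc4, an arrestin of the same family as Txnip, at 25.4 ± 5.03 CPM (wildtype) and 17.9 ± 5.30 CPM (APOE-KO) (SD, n = 6 each). Of these 5 genes 3 had a negative and 2 a positive log2 fold change. Pfkfb3 makes the activator of phosphofructokinase and, at those levels, exceeded each of the 10 members in mean CPM.

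In the other lists the genes with the smallest p were, in wildtype and APOE-KO, Bsg, the chaperone of lactate transporters (97.7 and 117 CPM, adjusted p = 0.566), and Mpc1 of the mitochondrial pyruvate carrier (7.53 and 10.5 CPM, adjusted p = 0.631). APOE-KO library 5 was the high one for both, and without it the log2 fold change was 0.15 for Bsg (all libraries, 0.26) and 0.23 for Mpc1 (all libraries, 0.48). Those of the pentose phosphate pathway were Prps1 (56.7 and 44.2 CPM, adjusted p = 0.541) and Tkt, transketolase (162 and 187 CPM, adjusted p = 0.579). Wildtype library 3 held 107 CPM of Prps1, and without it the log2 fold change of -0.37 was -0.073. Those of the side branches were Pygl, a glycogen phosphorylase (41.6 and 62.4 CPM, adjusted p = 0.142), and Gpd2, mitochondrial glycerol-3-phosphate dehydrogenase (113 and 93.3 CPM, adjusted p = 0.403). Among hypoxia-inducible genes they were Hilpda, a lipid droplet protein (48.4 and 58.8 CPM, adjusted p = 0.479), and P4ha1, a collagen prolyl hydroxylase (31.5 and 24.4 CPM, adjusted p = 0.541).

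Aldoa, Eno2 and Eno3 rose in APOE-KO, and markers of mature dendritic cells were higher there as a list. Of 15 such markers none was at 0 throughout (Il4i1 held 3 reads in all), 14 were tested and 7 rose, where 1.08% of all tested genes did. All 14 had a positive log2 fold change, with a median of 0.66. At an unadjusted p under 0.05, 13 of the 14 were higher, as were 6.27% of all tested genes. Their summed level was 4703 to 6644 CPM in wildtype and 6319.8 to 9453 CPM in APOE-KO. The mean log2 CPM of that list ran from 7.57 to 8.02 in wildtype and from 8.07 to 8.46 in APOE-KO, without overlap. A fit with this mean as a covariate thus cannot separate the list from genotype. In that fit the log2 fold changes were 0.36 for Aldoa (adjusted p = 0.955), 0.72 for Eno2 (adjusted p = 0.951) and -0.35 for Eno3 (adjusted p = 0.961), and 3 of all 10714 genes still passed. Within each genotype (6 libraries each) the 3 genes gave 6 relations to the list, of which none passed after adjustment over the 6. Pearson r was 0.362 (wildtype) and 0.545 (APOE-KO) for Aldoa, and 0.278 (wildtype) and 0.0657 (APOE-KO) for Eno2. The smallest exact permutation p was that of Eno3 in APOE-KO (Pearson r = 0.927, exact p = 0.0347, adjusted 0.208; Spearman rho = 0.771, exact p = 0.103, adjusted 0.617). It was 0.962 without the 2 libraries farthest from the median of the list. For Eno3 in wildtype r was 0.783 (exact p = 0.0806; rho 0.429, exact p = 0.419) and -0.961 without the 2 farthest libraries, so that relation rests on those. The part of these cells in the differences was not tested beyond these values.

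**Figure D4:**
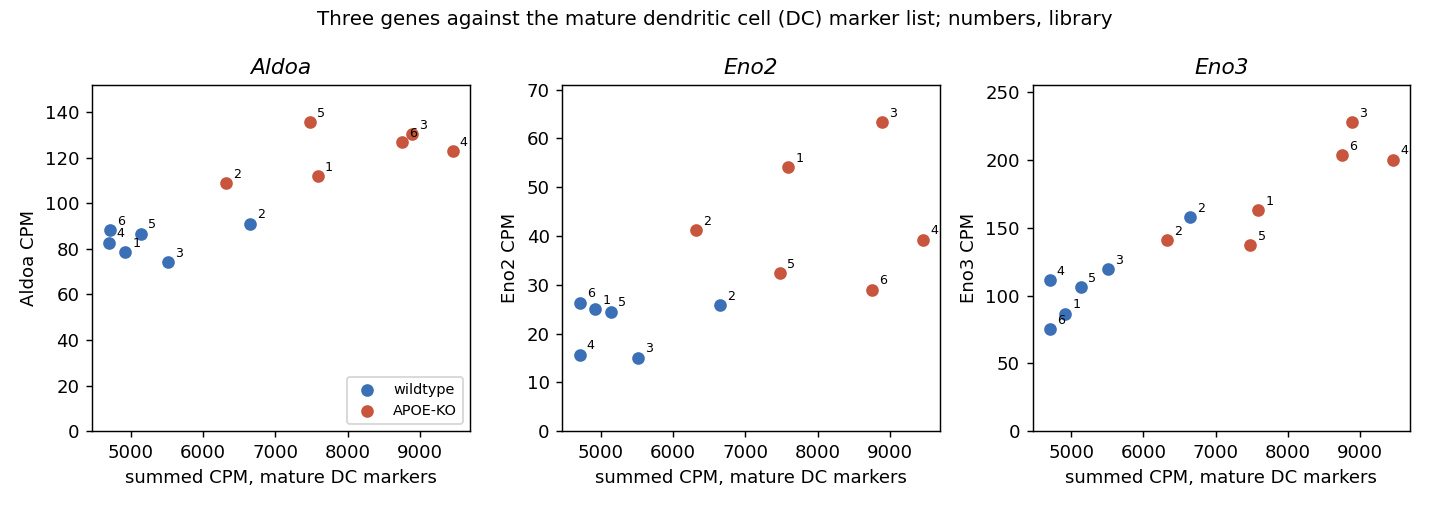
Level of Aldoa, Eno2 and Eno3 in CPM (vertical axes) against the summed CPM of 15 mature dendritic cell markers (horizontal axes) in the 12 libraries, numbered within genotype. The summed marker level runs from 4703 to 6644 CPM in wildtype and from 6319.8 to 9453 CPM in APOE-KO, and APOE-KO library 2 lies below wildtype library 2 on it.

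Some markers of other cell types also differed between the genotypes, where 1.49% of all tested genes passed (1.08% higher and 0.411% lower). Of 7 tested epithelial markers 1, the cadherin Cdh1, fell. Of the 7, 6 had a negative log2 fold change (median -1.45). At an unadjusted p under 0.05, 4 were lower and 1 higher, where 5.81% and 6.27% of all tested genes were. The summed level of the 15 was 238 to 323 CPM in wildtype and 125 to 360.1 CPM in APOE-KO, where Elf3 and Esrp1 were at 0. Mean log2 CPM of the list was 4.26 to 4.83 in wildtype and 0.972 to 4.84 in APOE-KO. APOE-KO library 4 was the high one, and the next, APOE-KO library 1, stood at 3.42. With the epithelial mean as a covariate none of Aldoa (adjusted p = 0.540), Eno2 (0.142) and Eno3 (0.20) passed, at log2 fold changes of 0.52, 1.23 and 0.86. Of 12 plasmacytoid dendritic cell markers, none at 0, 4 fell and 1 rose, with summed levels of 1544 to 3260.4 and 1262 to 1643 CPM. Of the 12, 11 had a negative log2 fold change (median -0.59), and 9 were lower and 1 higher at an unadjusted p under 0.05. Of 12 tested macrophage markers 2 rose and 4 fell (1124 to 1352 and 946 to 1249 CPM over 15, of which Vsig4 was at 0). The part of epithelial, plasmacytoid and macrophage RNA in the glycolysis values was otherwise not tested. Of the other marker lists, 1 of 7 tested B cell markers fell, 1 of 14 conventional dendritic cell markers rose and 1 fell, 1 of 9 endothelial and stromal markers rose, and no T cell, NK cell, monocyte or neutrophil marker passed. The red cell markers were too low to test, with 5 of 7 at 0. None of 15 proliferation genes passed (763 to 1123 and 733 to 892 CPM), and with their mean as a covariate Aldoa still passed (adjusted p = 0.0151).

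Among themselves the members did not vary as a unit. With the genotype means removed, the 36 pairs of tested members had Pearson r from -0.685 to 0.892 over the 12 libraries, given as a description, since all pairs share the same libraries and depths. The highest was that of Slc2a1 and Gapdh, whose Spearman rho was 0.434 and which are both low in wildtype library 1 and APOE-KO library 5. Pgk1, Pkm and Ldha went together (r 0.672, 0.657 and 0.650), while Hk2 went against Pkm and Gpi1 (r -0.640 and -0.619). The tested genes outside the 10, at 20 CPM or more, whose level followed the mean of the standardized members most closely were Sgk3, Rpl10a, Mtch2, Gpbp1 and Aurkaip1, with r from 0.867 to 0.916 and rho from 0.622 to 0.888 over 12 libraries. They were picked as the highest of all tested genes, and none of them passed the test between genotypes (adjusted p 0.500 to 0.965).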

How the data were processed

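Libraries from 6 wildtype and 6 APOE-KO samples were made with a 3' end kit of Lexogen (the forward version), per the labels' protocols. The authors deposited raw whole-number read counts per gene symbol. The submitters' processing notes name STAR 2.7.8a, featureCounts 1.5.1, R 4.1.0, DESeq2 1.4 and build mm10. Not given in the sources used here are the annotation, the strand setting, the treatment of reads with several matches and any use of molecular identifiers. The floor of 3 counts covers counting error only.

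The test was that of edgeR 4.0.16 under R 4.3.3: filterByExpr (minimum count 10, total 15), TMM scaling, glmQLFit and glmQLFTest on genotype alone over 12 libraries, and Benjamini-Hochberg adjustment over 10714 genes. The SE is the log2 fold change over the square root of F, and 95% intervals use the test's degrees of freedom. Each count of 3 stands for 0.525 to 1.59 CPM. Log2 CPM used a prior count of 2. Columns were matched to samples by their descriptions, and no column was left unused. The test function was tested on simulated data.

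The 10 members, the pathway and marker lists, the tests and the alternatives (among them DESeq2 1.42.0 and limma-voom, limma 3.58.1) were chosen with earlier results of these data known. The rule for named genes took Apoe, the 10 members, the tested isoenzymes, the genes past the threshold and the 2 with the smallest p of each other pathway list, and the 5 most like the members. Outside the rule, Pfkfb3, Pfkfb4 and Arrdc4 were named after their values were seen, as were markers that touch a result. Some listed genes are not reported here. Promoters and positions come from RefSeq (GRCm38.p6) and GENCODE vM21 (GRCm38, the assembly that mm10 names).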

Additional observations from a re-analysis of the deposited data

Results flagged for a closer look

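In 66 sets of 6 libraries (33 named genes, each in 2 genotypes), the highest or lowest library was far from the others, by Dixon's test at 95%, in 5 sets. Chance alone flags about 1 set in 20. Pkm was at 161 CPM in APOE-KO library 5, and the nearest library of its group at 126 CPM. Bsg was at 161 CPM in APOE-KO library 5, and the nearest library of its group at 115 CPM. Mpc1 was at 18.7 CPM in APOE-KO library 5, and the nearest library of its group at 10.9 CPM. Gapdh was at 25.5 CPM in wildtype library 1, and the nearest library of its group at 46.8 CPM. Gpd2 was at 90.3 CPM in wildtype library 1, and the nearest library of its group at 114 CPM. APOE-KO library 5 was the high one in 3 of these sets, and wildtype library 1 the low one in 2.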

How the results depend on the processing

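Of 9 tested members 1 passed, and of the tested pathway genes outside them 2. With size factors of the RLE or upper quartile kind, without Rn45s, with a stricter filter, with limma-voom, with robust dispersion and with the proliferation covariate, both counts stayed within 1.5 times of these, and Aldoa passed in each. DESeq2 called 272 genes in place of 160, and 4 pathway genes outside the members, as did the fit with no low count filter (4), Vhl and Txnip being added to Eno2 and Eno3. With the replicate number as a block, 100 genes passed, 0 members and 0 other pathway genes (adjusted p of Aldoa 0.0955); same-numbered libraries correlated at -0.0770 to 0.0185 in their deviations from the group means, so the numbers show no pairing. With the epithelial covariate the 3 counts were 37, 0 and 0, and with the mature dendritic cell covariate 3, 0 and 0. The mature dendritic cell covariate does not overlap between the genotypes, so a fit with it cannot separate that list from genotype. Without wildtype libraries 1 and 3 and APOE-KO library 5, 0 members passed and Eno2, Eno3 and Vhl did. Leaving out 1 library at a time gave 99 to 230 genes, 0 to 1 members and 0 to 3 other pathway genes, with the fewest genes (99) without APOE-KO library 3. The causes were not tested.

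Log2 fold changes that took the other sign, none of them past the threshold under the alternative, were as follows. Under limma-voom they were Slc2a3 0.048, Slc2a8 -0.048. With the epithelial covariate they were Pfkp -0.049, Pgam5 -0.042. With the mature dendritic cell covariate, which does not overlap between the genotypes, they were Hk2 0.011, Gpi1 -0.10, Tpi1 -0.089, Gapdh -0.068, Slc2a3 0.53, Slc2a8 -0.13, Hk1 -0.13, Pfkl -0.0095, Aldoc 0.11, Eno3 -0.35, Pygl -0.18. Without the 3 libraries together they were Ldha -9.3e-05, Slc2a8 -0.15, Hk3 -0.11, Pfkp -0.015, Ldhb -0.062. Fits without 1 library ranged from -0.020 to 0.12 for Ldha, from -0.24 to 0.13 for Slc2a3, from -0.089 to 0.43 for Slc2a8, from -0.0072 to 0.12 for Hk1, from -0.15 to 0.21 for Hk3, from -0.36 to 0.052 for Pgk1. The scaling alternatives reversed no named gene. Depth limits Slc2a1, Pgk1 and Pgam1, the members with the fewest reads.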
